A study of Tursiops truncatus with 17 samples.

Results

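Microglia are the resident macrophages of the brain, and 10 genes that mark them were followed through the cerebral cortex of 17 bottlenose dolphins (Tursiops truncatus). The genes were CD68, SPI1, CSF1R, ITGAM, TREM2, TYROBP, C1QA, C1QB, C1QC and CX3CR1, chosen by name. A row was taken where either of the files' name columns equalled one of these symbols, and 8 of the 10 were found among 21265 genes. C1QA and C1QC had no row under these names and are not analysed here. The dolphins fell into 8 labelled as non-bloom season and 9 labelled as bloom season. All carried the genotype label WT, and the tissue was archived brain from necropsy, kept frozen. Each dolphin gave 1 library. Numbers such as non-bloom 3 follow the order of deposition within a season. The comparison asks which cortical transcripts differ with the season. The labels used here give no age, sex, interval after death, collection date or sequencing batch, so none of these can be told apart from season, and no within-batch values are given.

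Microglia depend for survival on CSF1R, a receptor that binds the growth factors CSF1 and IL34, and their identity depends on the transcription factor PU.1, which SPI1 encodes. At rest they sense neurons through CX3CR1, the receptor for the neuronal ligand CX3CL1. They take up debris through receptors such as TREM2, which signals through the adaptor TYROBP, and through the complement receptor CR3, of which ITGAM encodes one chain. C1QA, C1QB and C1QC encode the chains of C1q, the protein that starts the classical complement cascade, and in the brain microglia are its main source. CD68 is a protein of the lysosome of phagocytic cells. None of the 8 genes is private to microglia, since macrophages of the brain's borders and blood monocytes express most of them and neutrophils express ITGAM and TYROBP.

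The deposited values are CPM, with library sizes scaled by the authors, and all values below are on that scale unless a log2 scale is named. Levels are compared between dolphins and not between genes, because transcript lengths were not used here. Total reads ran from 7680050 to 15635292 per library, and 3 reads, the limit that a count of 0 allows, were worth 0.158 to 1.71. The mitochondrial share of reads was 9.68% to 22.1% for non-bloom and 1.47% to 77.2% for bloom dolphins, with bloom 9, bloom 5 and bloom 6 highest at 77.2%, 57.0% and 33.5%. The most similar libraries, non-bloom 2 and non-bloom 8, still differed beyond sampling noise (chi-square per gene 17.7). In a bulk sample, fewer cells of a type and less RNA per cell cannot be told apart.

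For most of the 8 genes, 3 non-bloom libraries stood apart before any comparison was made. Non-bloom 3, non-bloom 7 and non-bloom 8 held the 3 highest values of CD68, SPI1, CSF1R, ITGAM, C1QB and CX3CR1. The same held for 0.494% of all genes tested and 0.884% of all genes with reads. The other 5 non-bloom libraries lay within the range of the bloom libraries for these genes, except non-bloom 1 and non-bloom 5 for CD68, at 2.38 and 2.06 beside at most 1.61 in bloom. Bloom 2 was the highest library after those 3 for 5 of the 6, all but CD68. The same 3 libraries came first for the same 6 genes under both other scalings tried. They were picked out here by these values, so no test sets them against the rest. The limma season and spread results of the tested members are given with and without them.

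**Figure D1:**
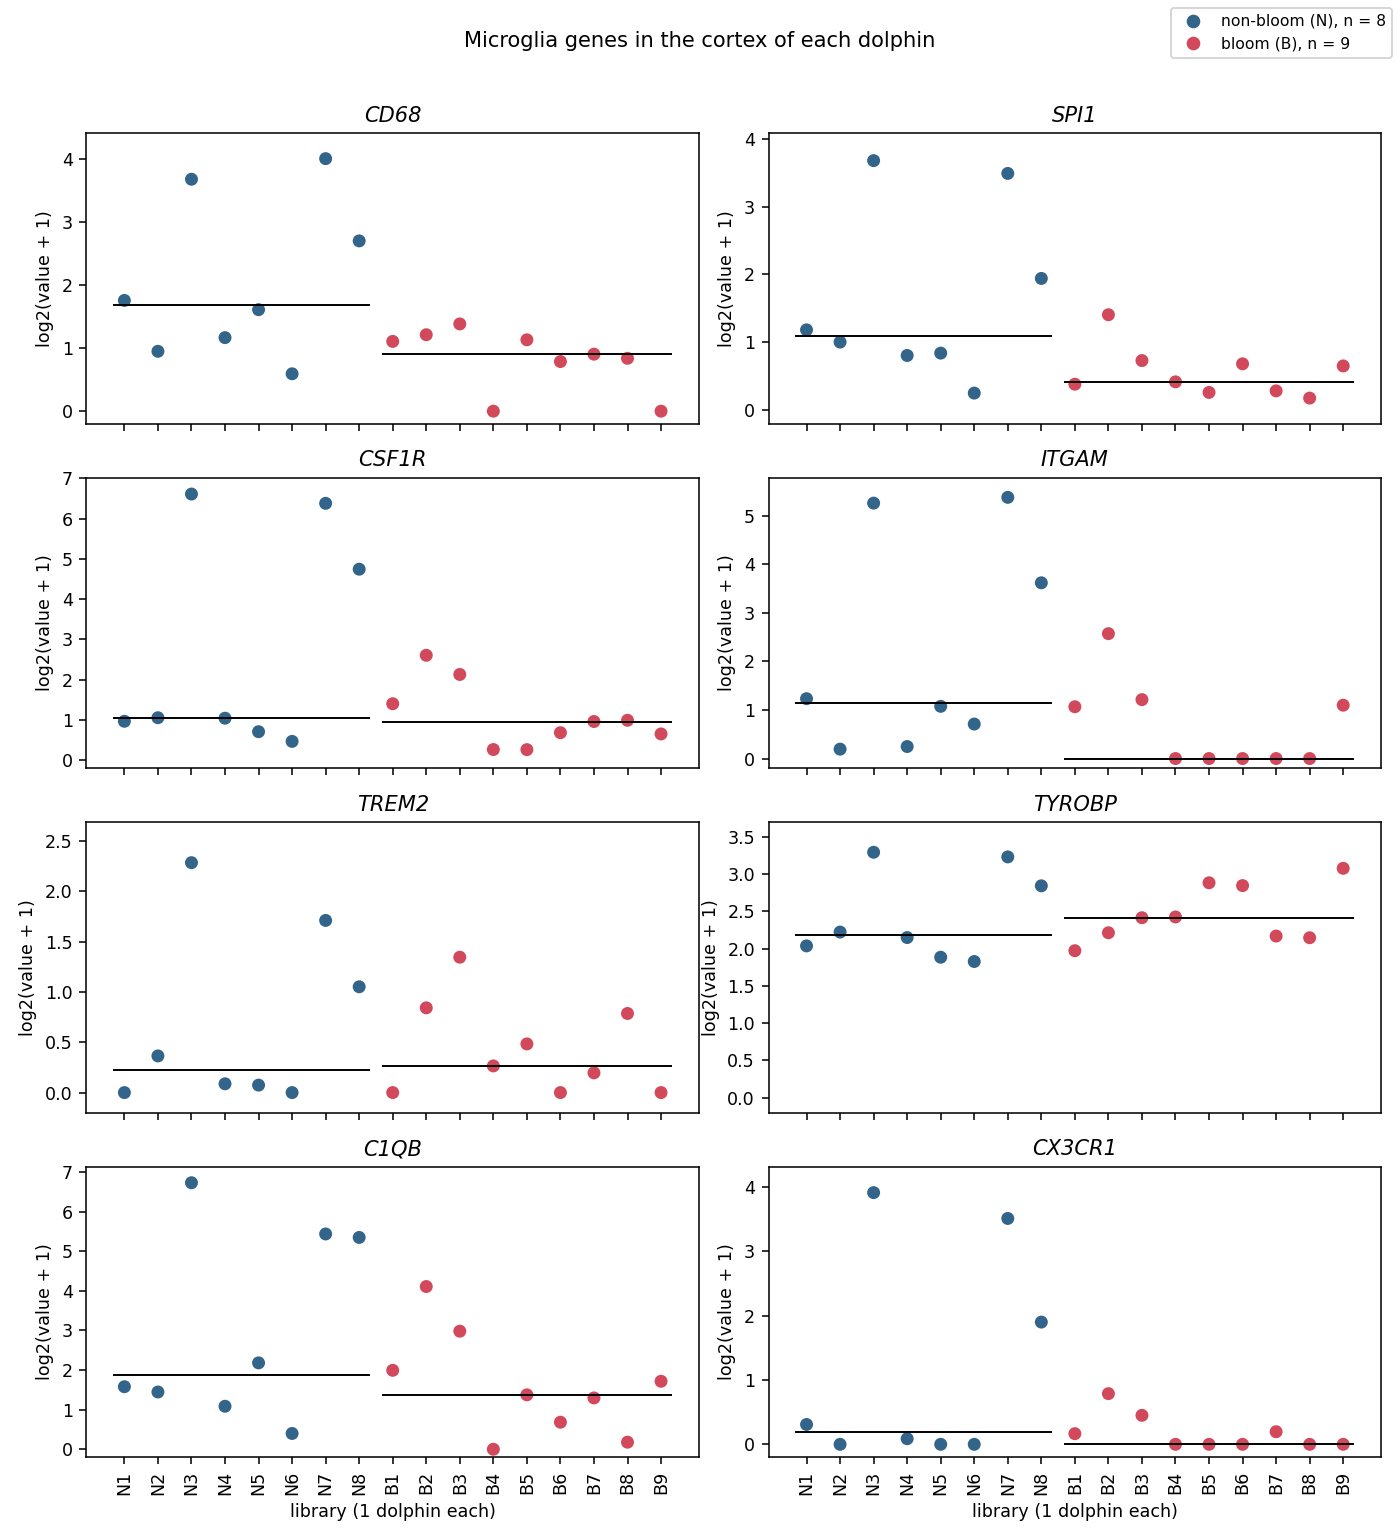
Values of the 8 microglia genes in each library, as log2(value + 1); each point is 1 dolphin (blue, 8 non-bloom, N; red, 9 bloom, B) and each black line is a group median. Non-bloom 3, 7 and 8 sit above all other libraries in 6 panels, while TREM2 and TYROBP have bloom libraries at or above non-bloom 8.

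SPI1, the gene of the transcription factor PU.1, lies on GeneScaffold_2836 from base 520667 to 534213. Its values were 0.191 to 11.8 among the non-bloom dolphins, with a median of 1.14. Among the bloom dolphins they were 0.132 to 1.65, with a median of 0.336. Non-bloom 3 and non-bloom 7, at 11.8 and 10.2, and non-bloom 8, at 2.84, were the high libraries, and the groups overlapped. The counts behind these values were small, with 1 to 25 reads in each bloom library and 192 in non-bloom 3. SPI1 averaged 3.61 ± 4.65 (SD, n = 8) in non-bloom and 0.520 ± 0.466 (SD, n = 9) in bloom libraries.

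CSF1R, the growth factor receptor on which microglia depend, ranged widely among the non-bloom dolphins. On GeneScaffold_2575, bases 1236688 to 1266796, it ran from 0.382 to 96.6 there around a median of 1.07. Among bloom dolphins it ran from 0.199 to 5.08 around a median of 0.946, so the medians of the groups lay close together while the upper ends did not. Non-bloom 3 had 96.6, non-bloom 7 had 82.2 and non-bloom 8 had 25.8, from 1573, 1375 and 481 reads. The next library, bloom 2, had 5.08 from 77 reads, and bloom 3 followed at 3.37.

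CX3CR1, the fractalkine receptor, was close to the limit of detection in most dolphins. Its gene lies on scaffold_115669 from base 55723 to 56805. It had 14.1 in non-bloom 3, 10.4 in non-bloom 7 and 2.73 in non-bloom 8, from 229, 174 and 51 reads. The highest of the other libraries, bloom 2, had 0.726 from 11 reads, and the remaining ones had 5 reads or fewer. It was at 0 in 3 non-bloom and 5 bloom libraries, where its level was below detection at this depth.

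ITGAM, the alpha chain of complement receptor CR3, divided the bloom dolphins as well. On GeneScaffold_2614, bases 35955 to 63796, it ran from 0.144 to 40.7 with a median of 1.23 among non-bloom dolphins. Among bloom dolphins it was at 0 in 5 of 9 and reached 4.95 in bloom 2. The high libraries were non-bloom 7 at 40.7, non-bloom 3 at 37.4 and non-bloom 8 at 11.3. Bloom 1, bloom 3 and bloom 9 had 1.10, 1.32 and 1.14, but the last rests on 2 reads.

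C1QB encodes a chain of C1q. On scaffold_113946, bases 242840 to 244741, it had 105 in non-bloom 3, 42.3 in non-bloom 7 and 39.7 in non-bloom 8. Bloom 2 followed at 16.2 and bloom 3 at 6.89. The group medians were 2.76 and 1.59, the lowest non-bloom value was 0.318 and the lowest bloom value 0, in bloom 4.

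The order of the 3 high libraries was not the same for each gene. As a share of the reads of C1QB and CSF1R together, C1QB took 52.1% in non-bloom 3 (95% exact binomial interval 50.4% to 53.8%). It took 34.0% in non-bloom 7 (31.9% to 36.0%) and 60.6% in non-bloom 8 (57.8% to 63.4%). In bloom 2 it took 76.2% (71.1% to 80.7%). These intervals do not overlap, so the balance of the 2 transcripts differed between these dolphins by more than counting error. This pair was picked after the values were seen, and the intervals cover counting error only, since PCR copies are not independent molecules.

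CD68, the lysosomal marker, kept a measurable level in nearly all dolphins. On GeneScaffold_2225, bases 46827 to 48660, it ran from 0.509 to 15.1 among non-bloom dolphins around a median of 2.22. Among bloom dolphins it ran from 0 to 1.61 around a median of 0.873. Non-bloom 7 was the highest at 15.1, ahead of non-bloom 3 at 11.9 and non-bloom 8 at 5.52. The fourth was non-bloom 1 at 2.38. All 9 bloom libraries lay below the non-bloom median, and bloom 4 and bloom 9 had no CD68 read.

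By value, TREM2 and its adaptor TYROBP did not have non-bloom 3, 7 and 8 as their 3 highest libraries. The libraries that displaced non-bloom 8 did so within counting error. TREM2, on GeneScaffold_460 from base 599 to 4822, had 3.87 in non-bloom 3 and 2.27 in non-bloom 7, and then 1.54 in bloom 3 ahead of 1.07 in non-bloom 8. Its highest value came from 63 reads, and 6 of the other 14 libraries had 1 to 4 reads. TYROBP, on GeneScaffold_2219 from base 126459 to 129385, was detected in all 17 dolphins. Its values ran from 2.55 to 8.78 in the non-bloom and from 2.92 to 7.43 in the bloom libraries, with medians of 3.55 and 4.33. Bloom 9, with 7.43, and bloom 5 and bloom 6 exceeded non-bloom 8, at 6.16. Bloom 9, bloom 5 and bloom 6 are the libraries with the highest mitochondrial shares, and the part of this in their TYROBP level was not tested.

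None of the microglia genes passed the season test. The test was limma on log2(value + 1) over the 13552 genes that had enough reads, and it called a gene at a Benjamini-Hochberg adjusted p under 0.05. It called 0 of the 6 members tested, where 9.16% of all genes tested were called, 4.47% higher and 4.69% lower in bloom. TREM2 and CX3CR1 had too few reads to be tested. At an unadjusted p under 0.05 it took in 3 of the 6, CD68, SPI1 and ITGAM, beside 35.4% of all genes.

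Of the 6 tested, 5 had a lower mean in bloom, and the median log2 change over the 6 was -1.34 beside -0.0034 over all genes tested. CD68 had a log2 change of -1.24 (SE 0.42, limma adjusted p = 0.0605) and SPI1 one of -1.09 (SE 0.41, adjusted p = 0.0768). CSF1R had the lowest estimate, -1.64 (SE 0.84, limma adjusted p = 0.167). ITGAM had -1.55 (SE 0.72) and C1QB -1.43 (SE 0.83), with limma adjusted p of 0.131 and 0.219. TYROBP had 0.025 (SE 0.24, limma adjusted p = 0.948). In a fit without the filter on low values CX3CR1 had -1.04 (SE 0.52, limma adjusted p = 0.195) and TREM2 -0.26 (SE 0.32, limma adjusted p = 0.598). A season difference beyond the spread between dolphins was thus not shown for any of the 8 by this test.

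Count models called more of them. edgeR's quasi-likelihood test on the recovered reads called CD68, SPI1 and CSF1R lower in bloom, 3 of 6, with adjusted p of 0.0377, 0.0349 and 0.0370. It called 8.29% of all genes tested, 6.1% higher and 2.19% lower in bloom, so its calls fell 826 to 297 toward bloom where limma's fell 606 to 635. DESeq2 called 5 of the 6, all but TYROBP, lower, beside 23.4% of all genes tested, 9.05% of them lower.

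Without those 3 libraries the direction itself did not hold for CSF1R and C1QB. Their log2 changes became 0.26 (SE 0.35, limma adjusted p = 0.647) and 0.25 (SE 0.57, limma adjusted p = 0.788). ITGAM came to -0.031 (SE 0.40, limma adjusted p = 0.966), CD68 to -0.40 (SE 0.27, limma adjusted p = 0.343) and SPI1 to -0.26 (SE 0.21, limma adjusted p = 0.430). TYROBP came to 0.44 (SE 0.20, limma adjusted p = 0.198). In that fit 0.0291% of 13728 genes, 4 in all, were called. Since the libraries were left out for their values, these estimates describe the other 14 dolphins and test nothing.

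**Figure D2:**
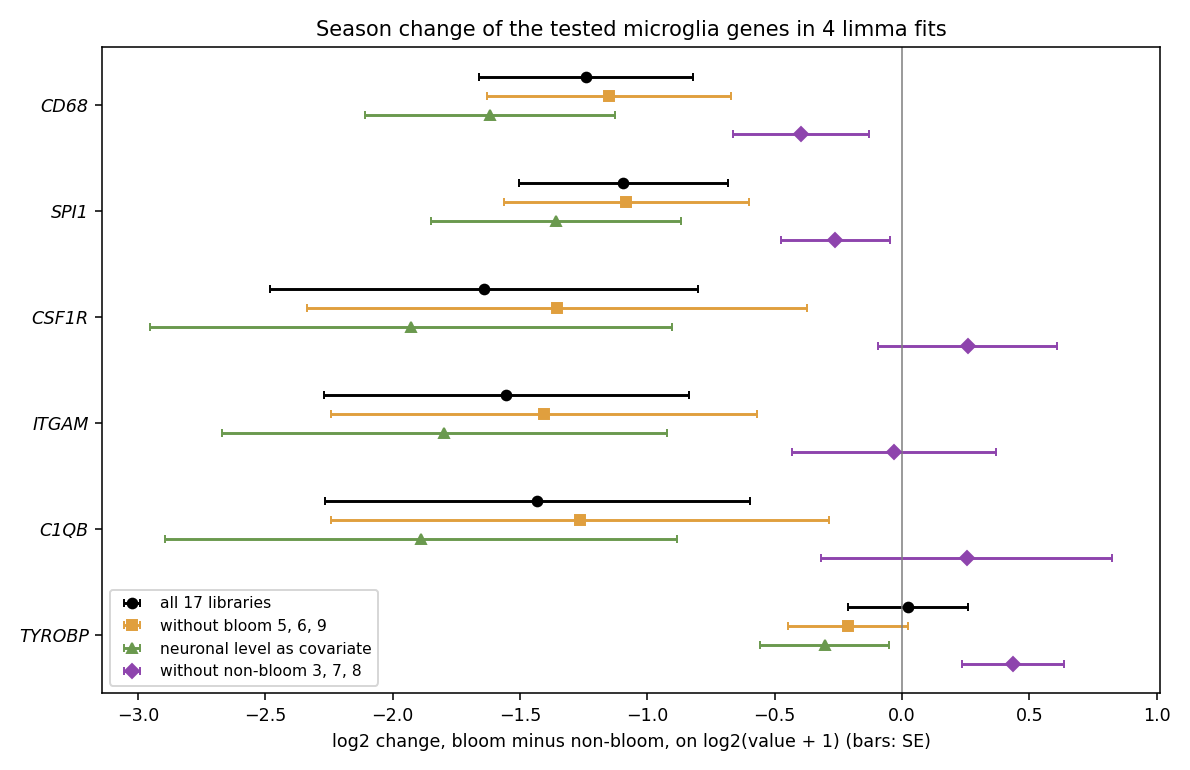
Log2 change between bloom and non-bloom dolphins for the 6 tested microglia genes in 4 limma fits, with bars of 1 SE; values below 0 are lower in bloom. In CSF1R, ITGAM and C1QB the estimates of -1.64, -1.55 and -1.43 came to 0.26, -0.031 and 0.25 without non-bloom 3, 7 and 8, and leaving out bloom 5, 6 and 9 moved them less.

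The spread between dolphins within a season was compared as deviations from the season medians. CD68 deviated from its group median by 0.98 on average in non-bloom and by 0.36 in bloom libraries, on the log2(value + 1) scale. This difference had an unadjusted p of 0.0376 and did not pass adjustment (limma, adjusted p = 0.538). For CSF1R the mean deviations were 1.95 and 0.59 (limma adjusted p = 0.542), and for C1QB 1.90 and 0.96 (limma adjusted p = 0.545). No gene passed, 0% of 13552, and at an unadjusted p under 0.05 the spread was larger in non-bloom for 0.14% of genes and larger in bloom for 8.59%. The 6 members tested all had the larger mean deviation in non-bloom libraries, and only CD68 did so at an unadjusted p under 0.05. Without non-bloom 3, 7 and 8 the difference, bloom minus non-bloom, turned to 0.037 for SPI1, 0.40 for CSF1R, 0.29 for ITGAM, 0.17 for TYROBP and 0.51 for C1QB, and CD68 came to -0.0081.

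The members also varied together among the bloom dolphins, where none of the 3 high libraries is included. Of 28 pairs, 8 had a Pearson correlation that passed an exact or permutation test adjusted over the 28 pairs, and none passed by Spearman's rho. For ITGAM with C1QB r was 0.917 (permutation p = 0.00066, adjusted p = 0.0185) and rho 0.895 (permutation p = 0.00265, adjusted p = 0.0741), n = 9. Without bloom 2 and bloom 3 r fell to 0.732 (exact permutation p = 0.0952, n = 7). For CSF1R with CX3CR1 r was 0.936 (permutation p = 0.00132, adjusted p = 0.0185; rho 0.822, permutation p = 0.0112, adjusted p = 0.157), and 0.690 without those libraries (exact permutation p = 0.143, n = 7). None of the 8 pairs passed without bloom 2 and bloom 3. With n = 7 and a narrower range of values, how far the relations rest on those dolphins cannot be told. None of the 8 pairs involved TYROBP. No pooled r is given, because the non-bloom libraries form separate clusters.

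Genes of the same cells were examined next. Their lists were drawn up by gene function, but with earlier results of these data known. Among 15 genes of homeostatic microglia, 4 had their 3 highest values in non-bloom 3, 7 and 8, beside 0.494% of all genes tested and 0.884% of all genes with reads. They were P2RY12, the purine receptor that marks resting microglia, AIF1, which encodes IBA1, the membrane protein gene CD53, and the fructose transporter gene SLC2A5. P2RY12 had 10.7, 8.31 and 2.63 in these libraries, and the highest other value was 2.20, in bloom 3. AIF1 had 12.0, 7.47 and 4.77, with 3.24 in bloom 2 next. CD53 had 14.7, 11.5 and 4.77, and no other library reached 1.

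Not all homeostatic genes shared this order, and the list's tested members were split by season. The only one of 12 tested to pass was ITGB5, an integrin chain that other cortical cells also make, which rose by a log2 of 0.87 (SE 0.21, limma adjusted p = 0.0315). It ran from 62.7 to 122 in non-bloom and from 104 to 376 in bloom dolphins. SALL1, a transcription factor of microglia, had 0.83 (SE 0.31, limma adjusted p = 0.0742) and HAVCR2, an immune checkpoint receptor, -0.42 (SE 0.16, limma adjusted p = 0.0738). The median log2 change over the 12 was 0.011, beside -0.0034 over all genes.

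**Figure D3:**
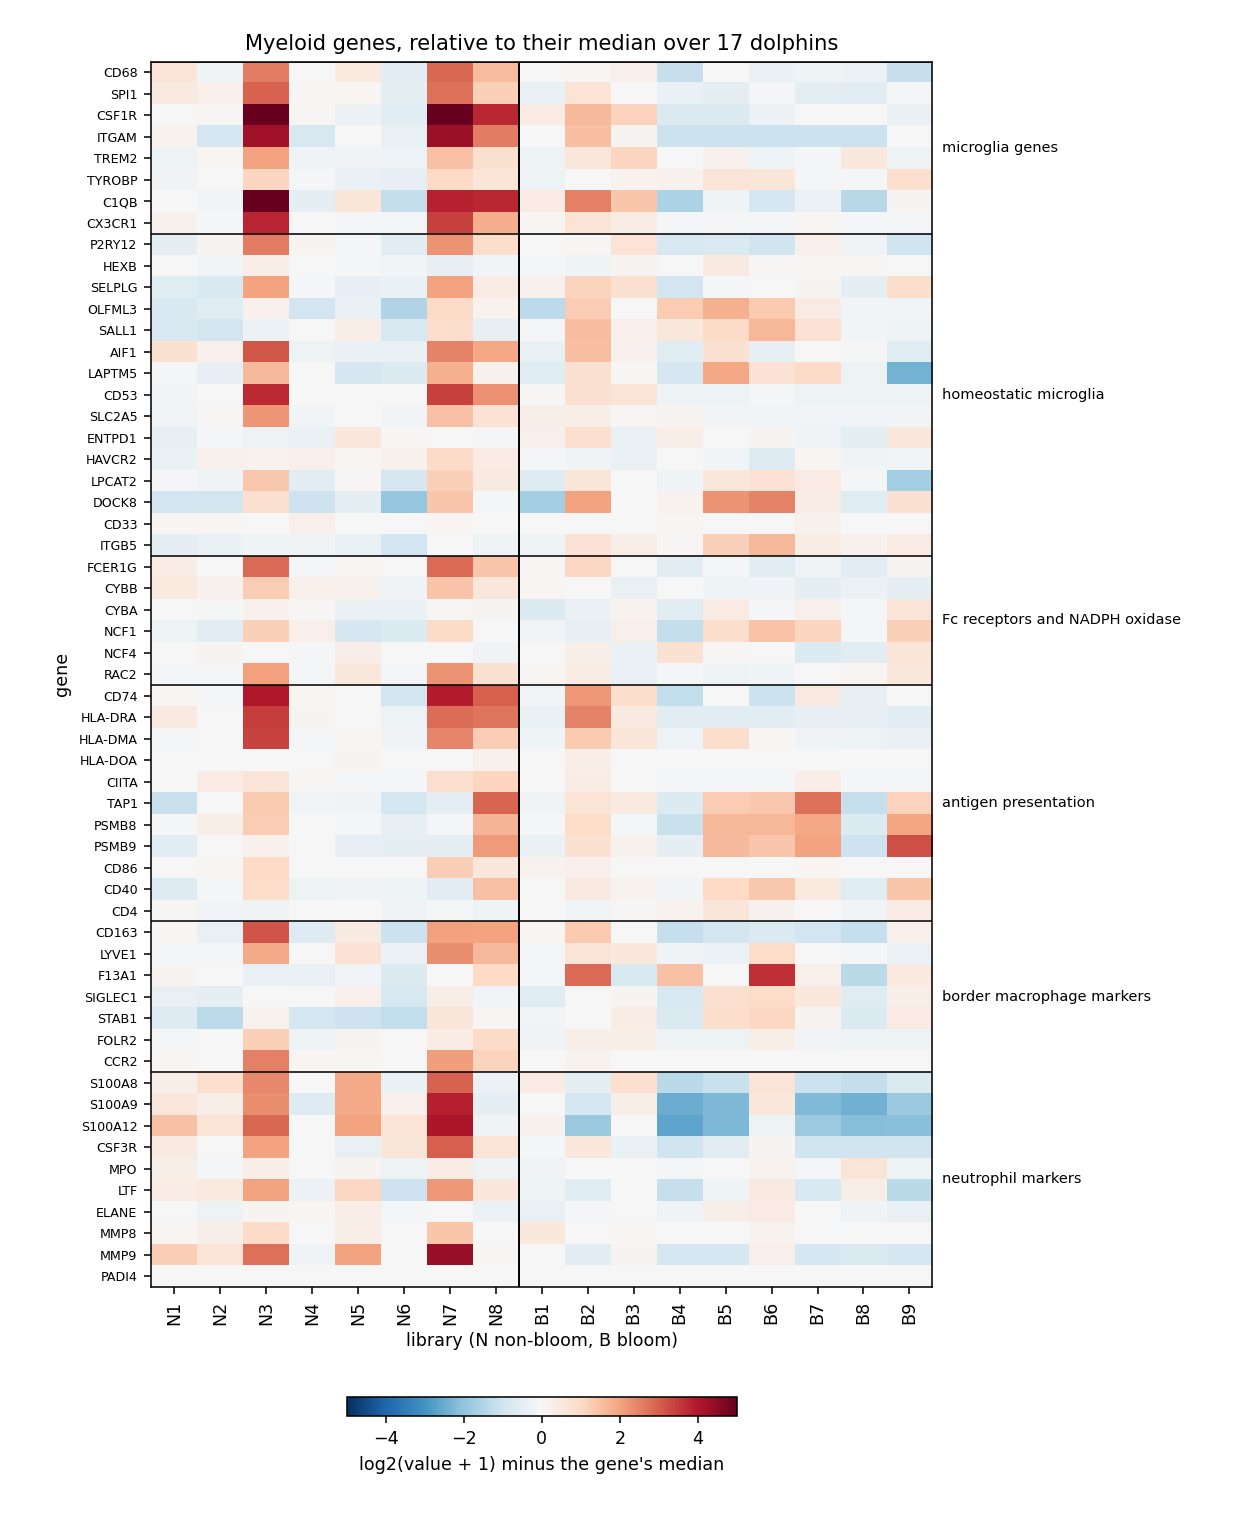
Genes of 6 lists in rows and the 17 libraries in columns, coloured by log2(value + 1) minus each gene's median over all libraries. Columns N3, N7 and N8 are red over most microglia genes, CD53, CD74 and HLA-DRA, whereas S100A8, S100A9, S100A12 and MMP9 of the neutrophil rows are red in N3, N5 and N7 and not in N8.

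Of 6 ligands of these receptors, none had its 3 highest values in non-bloom 3, 7 and 8, and 1 of 6 passed the season test. IL34, the neuronal ligand of CSF1R, rose by a log2 of 0.85 (SE 0.25, limma adjusted p = 0.0444), from 10.6 to 20.8 in non-bloom to 12.6 to 59.3 in bloom dolphins. CSF1, its other ligand, had 0.83 (SE 0.33, limma adjusted p = 0.0868). CX3CL1, the neuronal ligand of CX3CR1, ran from 69.0 to 155 in non-bloom and from 6.17 to 122 in bloom dolphins, with a log2 change of -1.09 (SE 0.44, limma adjusted p = 0.0916).

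The lipid carriers that TREM2 binds were abundant. APOE ran from 319 to 2119.7 in non-bloom and from 562 to 7908 in bloom dolphins, with a log2 change of 1.39 (SE 0.47, limma adjusted p = 0.0605). Its companion CLU had 0.82 (SE 0.35, limma adjusted p = 0.104). ICAM1, an adhesion ligand of CR3, had -0.35 (SE 0.51, limma adjusted p = 0.638) and 0.21 without non-bloom 3, 7 and 8. APOE, CLU and CSF1 were highest in bloom 5 or bloom 6, and the summed level of 10 astrocyte markers, genes of the cells that make most brain APOE, was 10119 and 8617 there. It ran from 1809 to 3308 in non-bloom and from 1402 to 10119 in bloom dolphins. The part of this in the ligands' levels was not tested.

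Of the myeloid transcription factors, 2 of 8 tested fell, and both are also factors of neurons. MEF2C fell by a log2 of 1.24 (SE 0.32, limma adjusted p = 0.0349) and MEF2A by 0.98 (SE 0.28, limma adjusted p = 0.0420). Summed pan-neuronal markers ran from 8853 to 14505 in non-bloom and from 2526 to 10862 in bloom dolphins. Their part in the change of the MEF2 genes was not tested beyond a fit with the mean log2 level of these markers as covariate. Neither gene passed in it, but only 3 genes of the whole table did, so this is not particular to the MEF2 genes. RUNX1 and IKZF1, factors of blood and myeloid cells, had their highest values in non-bloom 3, 7 and 8 but too few reads to be tested, IKZF1 with 1.54, 2.51 and 0.965 beside at most 0.264 elsewhere.

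In the signalling pathway downstream of TREM2 and TYROBP, 0 of 9 genes tested passed by limma and 1, ADAM17, by edgeR. ADAM17, the protease that sheds TREM2, had a log2 change of 0.59 (SE 0.19, limma adjusted p = 0.0515, edgeR adjusted p = 0.0448). SYK, the kinase that TYROBP recruits, had -0.94 (SE 0.32, limma adjusted p = 0.0607). Its values were 9.74 to 13.5 in non-bloom dolphins and 0.597 to 14.9 in bloom dolphins. LYN, a Src family kinase, had 0.70 (SE 0.37, limma adjusted p = 0.175). BTK and LAT2, a kinase and an adaptor of immune cells, had their 3 highest values in non-bloom 3, 7 and 8, with 6.76, 6.82 and 2.73 for LAT2.

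Among complement genes, 0 of 11 tested passed by limma and 0 by edgeR. C3, the central component that C1q activation leads to, was the only one of 14 with its 3 highest values in non-bloom 3, 7 and 8, at 57.9, 34.3 and 14.3, with bloom 2 next at 6.21. Its log2 change was -1.10 (SE 0.71, limma adjusted p = 0.260), and 0.38 without those 3 libraries. SERPING1, the C1 inhibitor, had 0.47 (SE 0.19, limma adjusted p = 0.0958) and CD59, which blocks the membrane attack complex, 0.24 (SE 0.14, limma adjusted p = 0.217). ITGB2, the beta chain that pairs with ITGAM, had -0.64 (SE 0.27, limma adjusted p = 0.0982). It was detected in all dolphins, from 6.77 to 35.6, with non-bloom 3 and non-bloom 7 highest at 35.6 and 33.4 followed by bloom 8 at 22.0.

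Of the genes of phagocytosis and the lysosome, 1 of 17 tested passed, beside 9.16% of all genes tested. GPNMB, a glycoprotein of phagocytes, rose by a log2 of 1.40 (SE 0.41, limma adjusted p = 0.0459), from 3.44 to 20.2 in non-bloom to 9.72 to 90.5 in bloom dolphins. It was highest in bloom 2 and bloom 6, at 90.5 and 81.8. AXL, a receptor for dying cells, had 1.46 (SE 0.49, limma adjusted p = 0.0576), and LGALS3, a galectin, 0.64 (SE 0.28, limma adjusted p = 0.107). The protease gene CTSS and the receptor genes CLEC7A and CD14 shared the 3 high libraries, CTSS with 15.9, 14.0 and 12.4.

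CD74, the invariant chain of MHC class II, HLA-DRA, CIITA and CD86 had their 3 highest values in non-bloom 3, 7 and 8, 4 of 11 genes. CD74 had 89.4, 86.1 and 44.4 there, 24.5 in bloom 2 and 9.61 or less elsewhere. HLA-DRA, the class II alpha chain, had 14.8, 8.79 and 7.99, 6.87 in bloom 2 and at most 0.954 elsewhere. None of 5 tested passed by limma or edgeR. CD74 had -1.21 (SE 0.69, limma adjusted p = 0.209), PSMB9 of the immunoproteasome 0.77 (SE 0.51, limma adjusted p = 0.283) and CD40 0.40 (SE 0.32, limma adjusted p = 0.376). CD74 came to 0.21 without those 3 libraries.

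Among inflammatory genes 1 of 17, IL1B, a cytokine of activated microglia and other myeloid cells, had its 3 highest values in non-bloom 3, 7 and 8, at 6.08, 2.15 and 1.23. None of 10 tested passed by limma or edgeR. TGFB1, which maintains the homeostatic state, had 0.82 (SE 0.37, limma adjusted p = 0.123), NOS2, the inducible nitric oxide synthase, -0.77 (SE 0.40, limma adjusted p = 0.170), and NFKBIA, an inhibitor of NF-kB, 0.69 (SE 0.38, limma adjusted p = 0.189).

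Phagocytes make reactive oxygen with the NADPH oxidase, and its subunits were read beside the Fc receptors. NCF1, the p47 subunit, had 0.32 (SE 0.37, limma adjusted p = 0.531), and turned to -0.093 without bloom 5, 6 and 9. CYBA, the p22 subunit, had 0.0076 (SE 0.17, limma adjusted p = 0.978). CYBB, the catalytic subunit, and RAC2, a GTPase of the complex, had too few reads to be tested, as did FCER1G, the shared signalling chain of Fc receptors. These 3 of the list's 7 genes were highest in non-bloom 3, 7 and 8, FCER1G with 9.21, 9.33 and 2.79 beside at most 1.98 elsewhere.

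**Figure D4:**
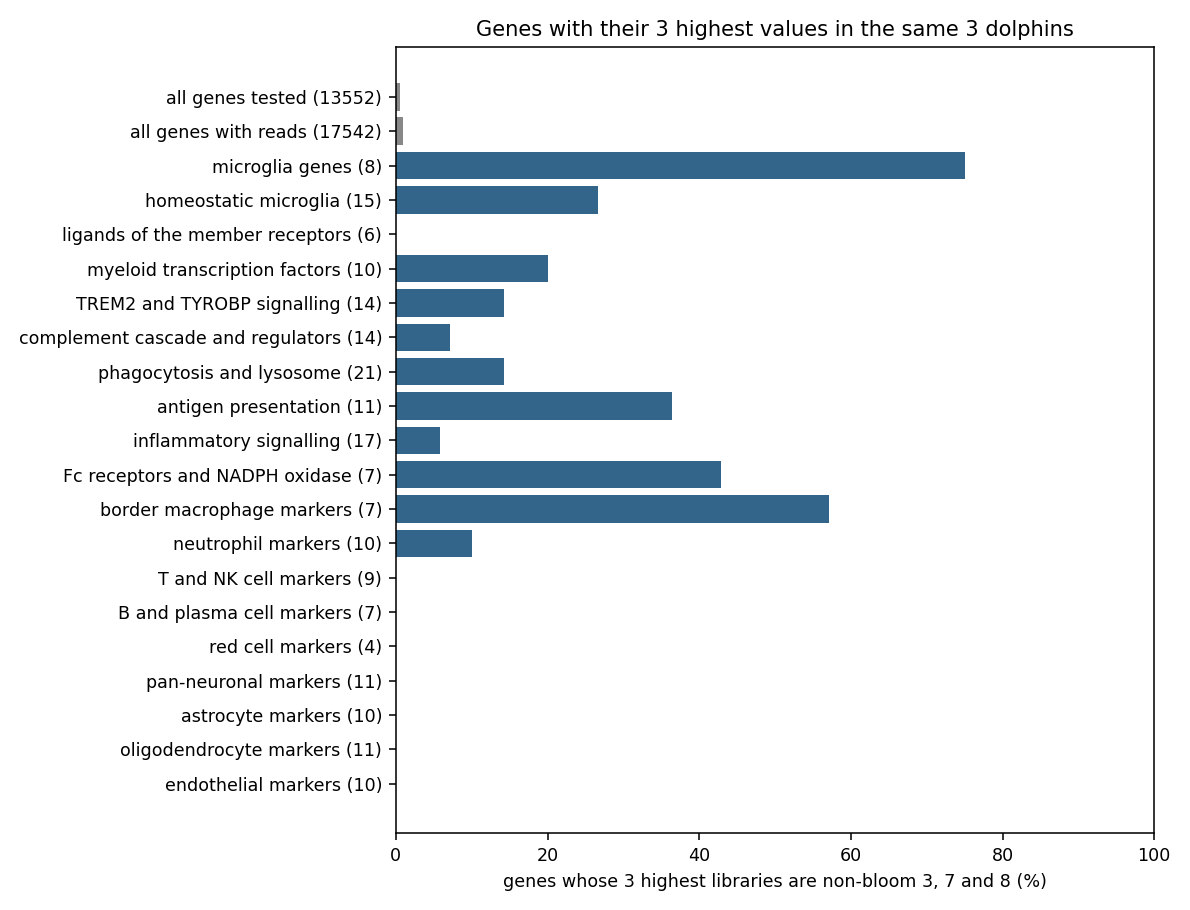
Share of the genes of each list (number found in brackets) whose 3 highest libraries were non-bloom 3, 7 and 8. The microglia genes reach 6 of 8, border macrophage markers 4 of 7, all genes tested 0.494% and all genes with reads 0.884%; the libraries were picked from the microglia genes, so that bar is a description.

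Markers of other cells were read beside the members. Of 7 markers of border macrophages, which line vessels and meninges, CD163, LYVE1, FOLR2 and CCR2 had their 3 highest values in non-bloom 3, 7 and 8. CD163 had 19.1, 8.37 and 8.15, followed by bloom 2 at 4.56, and CCR2, a receptor of blood monocytes, had 4.73, 3.29 and 1.18 beside at most 0.132 elsewhere. STAB1, SIGLEC1 and F13A1 did not follow, and the summed level of the list ran from 21.2 to 93.8 in non-bloom and from 28.8 to 137 in bloom dolphins. None of 4 tested passed the season test by limma or edgeR; STAB1 had 0.66 (SE 0.30, limma adjusted p = 0.121), CD163 -1.07 (SE 0.53, limma adjusted p = 0.155) and F13A1 0.78 (SE 0.55, limma adjusted p = 0.305). The part of border macrophages and monocytes in the members' levels was not tested.

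Neutrophil markers included genes that passed the season test. Of 6 tested, 3 fell in bloom: S100A12 by a log2 of 2.87 (SE 0.57, limma adjusted p = 0.0178), S100A9 by 2.25 (SE 0.62, limma adjusted p = 0.0387) and MMP9 by 1.85 (SE 0.51, limma adjusted p = 0.0397). S100A9 and S100A12 encode calcium-binding proteins of neutrophils and MMP9 a gelatinase. The summed level of the 10 markers found ran from 13.0 to 278 in non-bloom and from 0.470 to 21.0 in bloom dolphins, and PADI4 was at 0 or near it in all. Non-bloom 7 and non-bloom 3 were highest, at 278 and 117, and non-bloom 5 followed at 66.5. Of the 10, CSF3R, the receptor for the granulocyte growth factor, had its 3 highest values in non-bloom 3, 7 and 8, at 7.06, 14.8 and 2.09, with non-bloom 6 next at 2.04. For the sum, non-bloom 8 had 14.7, with 9 libraries above it, while for the summed microglia genes only 2 were above it. The part of neutrophils in the season values of ITGAM and TYROBP was not tested.

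Lymphocytes left little trace. CD3D, CD3E, CD2 and CD8A of T cells and CD79A and MS4A1 of B cells were at or under 0.396 in all libraries. CD3G, the only T cell marker with enough reads to test, fell by a log2 of 1.18 (SE 0.34, limma adjusted p = 0.0439), while its partner chains were near 0. Markers of red cells, a sign of blood in the tissue, summed to 10.3 to 95.7 in non-bloom and 0.852 to 135 in bloom dolphins. Non-bloom 3 and non-bloom 8, at 10.3 and 13.4, lay at the low end of the non-bloom range, and non-bloom 7, at 95.7, at the top.

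Markers of vessels placed the 3 libraries within the range of the other non-bloom dolphins, and markers of neurons placed them lowest among the non-bloom dolphins. Summed endothelial markers were 482, 713 and 463 in non-bloom 3, 7 and 8, within 327 to 928 of all non-bloom dolphins, and bloom dolphins ran from 186 to 2909. Summed pan-neuronal markers were 10001, 8853 and 10315, the 3 lowest values of the non-bloom dolphins, which reached 14505. Bloom dolphins ran from 2526 to 10862 for this sum. Oligodendrocyte markers were 2518, 3756 and 1727, which put non-bloom 8 and non-bloom 3 lowest of the 17. The summed microglia genes ran from 4.58 to 289 in non-bloom and from 5.10 to 34.4 in bloom dolphins.

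Single markers of these other cells passed the season test, beside 9.16% of all genes tested. Of 11 pan-neuronal markers 1 fell, SYT1 of synaptic vesicles, by a log2 of 1.52 (SE 0.40, limma adjusted p = 0.0365), and the list's median change was -0.68. Of 11 oligodendrocyte markers 2 rose, ERMN by 1.41 (SE 0.30) and MOG by 0.70 (SE 0.21), both genes of myelin-forming cells, with limma adjusted p of 0.0232 and 0.0480. Of 10 endothelial markers 1 rose, the transporter gene SLCO1A2, by 1.48 (SE 0.46, limma adjusted p = 0.0492). None of 10 astrocyte markers passed by limma and 3 did by edgeR, with a median change of 1.26. None of 3 red cell markers and 1 B and plasma cell marker passed by limma or edgeR. For the season values of the microglia genes, a covariate fit took in the level of neuronal markers only, and 3 genes of the whole table passed in it. There CSF1R had -1.93 (SE 1.02, limma adjusted p = 0.644) and CD68 -1.62 (SE 0.49, limma adjusted p = 0.335), beside -1.64 and -1.24 without the covariate. The unadjusted limma p of CD68 was 0.0039 with the covariate and 0.0082 without it. The part of the other cell types was not tested.

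**Figure D5:**
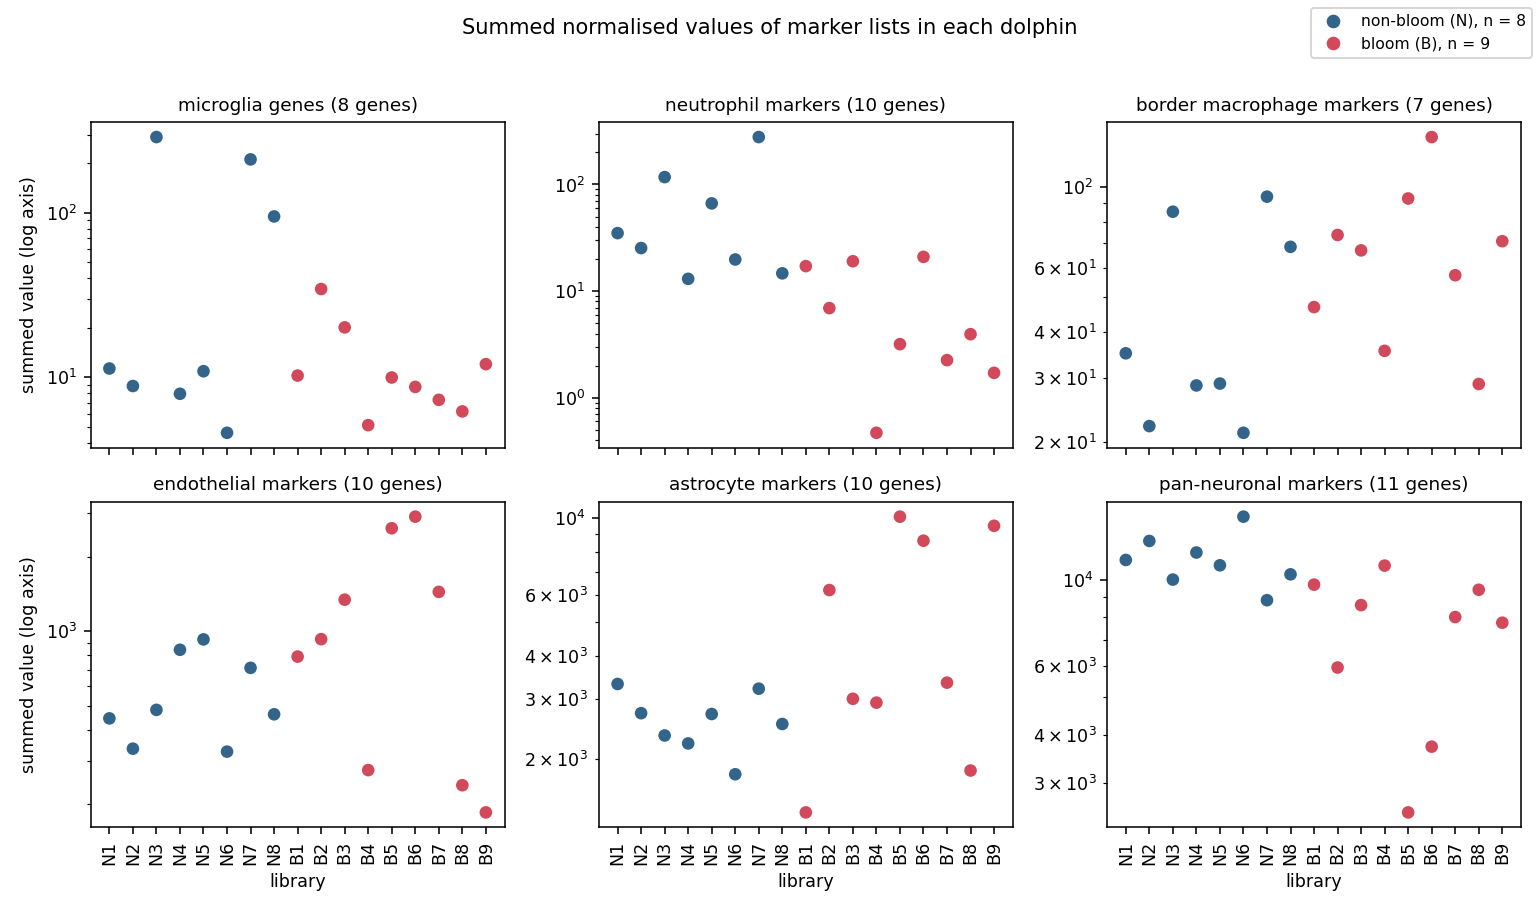
Summed values of 6 marker lists in each library on log axes (blue, 8 non-bloom, N; red, 9 bloom, B). N3, N7 and N8 are the 3 highest for the microglia genes, at 289, 212 and 95.1, and N8 is not among the high libraries for neutrophil markers, at 14.7.

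The 6 genes outside the list that were most like the members were chosen by Pearson correlation with the mean log2 level of the 6 tested members over all 17 dolphins. They were CD74, C3, CD163, CSF2RB, BIN2 and LY9. Since the 3 high libraries dominate that measure, likeness is given over the 9 bloom dolphins. It was 0.918 for CD163, 0.901 for CD74, 0.866 for C3, 0.856 for CSF2RB, 0.794 for LY9 and 0.525 for BIN2. CSF2RB, the shared receptor chain of GM-CSF, had 10.1, 17.8 and 5.25 in non-bloom 3, 7 and 8 and at most 2.91 elsewhere. BIN2, a membrane-bending protein of blood cells, had 7.92, 7.65 and 1.98, and LY9, a lymphoid and myeloid surface receptor, 12.8, 14.4 and 5.79. None of the 6 passed the season test, and CSF2RB came nearest with a log2 change of -1.38 (SE 0.46, limma adjusted p = 0.0586).

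The season calls named here for myeloid and lymphoid lists and ligands differed in how stable they were. IL34 passed in 4 of 17 fits that each left out 1 dolphin, GPNMB in 4, ITGB5 in 9, MEF2C in 8, MEF2A in 5, S100A9 in 6, MMP9 in 6 and CD3G in 5. S100A12 passed in all 17 such fits and without bloom 5, 6 and 9, and the other 8 of these 9 genes did not pass without the latter. None of the 9 passed without non-bloom 3, 7 and 8, where 4 genes of the whole table did. None passed either when the mean log2 level of the neuronal markers entered as a covariate, where 3 genes did.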

How the data were processed

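Messenger RNA of frozen cerebral cortex was sequenced from 17 dolphins, 8 non-bloom and 9 bloom, grouped by the treatment label. Trim Galore 0.6.1 and STAR 2.5.2a were used by the authors, per the submitters' processing notes. The sources used here do not name the read counter or the genome build. The authors deposited a normalised signal for each gene in each library. Of these, 100% were whole multiples of 1 read within 0.01, so reads were recovered from the deposited values. The divisors fit CPM with library sizes scaled by TMM, the trimmed mean of M values.

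Genes were kept by edgeR's filterByExpr (minimum count 10, minimum total 15), which left 13552 of 17542 with reads. The test was limma-trend on log2(value + 1), fitted to all 17 libraries with no term but season, at a Benjamini-Hochberg adjusted p under 0.05. Spread was tested by limma on absolute deviations from group medians. Both tests were checked on simulated counts. The season test called 46 of 99 genes with a simulated log2 change of 1 and 99 of 100 with a change of 2. The spread test called 200 of 200 genes with 8-fold spread either way in non-bloom. That setting differs from 3 high libraries among low ones, so it does not show what the spread test can find in the members. Correlations used log2 values and exact permutation tests, or 100000 permutations. Fits leaving out non-bloom 3, 7 and 8 and correlations within bloom were chosen after seeing the data.

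The 10 members and the other 18 lists were chosen with earlier results of these data known. Named genes are all members, all ligands, the 3 with the smallest p in each other list of myeloid genes, and the 6 most like the members; others were named after their values were seen. Results for some genes under this rule are left out of the text, and those genes remain in all fits and counts. Separate dolphins are the replicates. For lists of neural, vascular, red and B cells, single genes are printed only where they passed or define the cell. Intervals cover counting error only, at 95%. The alternatives were edgeR and DESeq2 on recovered reads, voom with quality weights in limma, relative log expression scaling, TMM scaling without mitochondrial transcripts, a pseudocount of 0.1, no filter, a filter of a value of 1 in 8 libraries, neuronal marker levels as a covariate, leaving out bloom 5, 6 and 9, and leaving out each library. The tools were DESeq2 1.42.0, edgeR 4.0.16 and limma 3.58.1 in R 4.3.3. The planned ratio of C1q chains could not be run, because only C1QB was matched.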

Additional observations from a re-analysis of the deposited data

Results flagged for a closer look

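In 16 groups of values, the 8 microglia genes in each season, the sample at one end was compared with its nearest neighbour relative to the group's whole range. The rule flags about 1 in 20 groups by chance where values are normally distributed, and 5 were flagged here. These values are skewed, some are 0, and the genes vary together. The 5 are therefore not read against that rate. Bloom 2 stood apart from the other 8 bloom libraries for SPI1 at 1.65 (next 0.660), for ITGAM at 4.95 (next 1.32), for C1QB at 16.2 (next 6.89) and for CX3CR1 at 0.726 (next 0.367). Non-bloom 3 stood apart from the other 7 non-bloom libraries for C1QB, at 105 (next 42.3). Where more than 1 library is high, as in the non-bloom group for the other members, this rule flags none of them.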

How the results depend on the processing

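No paired analysis was possible because replicate numbers were given in order of deposition and tie no non-bloom dolphin to a bloom dolphin. The count of genes passing, 1241 by limma, was 3173 by DESeq2, 4124 by limma-voom, 560 without a filter, 3 with the pan-neuronal covariate, 320 without bloom 5, 6 and 9 and 4 without non-bloom 3, 7 and 8. It ran from 61 to 2895 with 1 library left out (61 without non-bloom 2, 2895 without bloom 1). Of the members, 0 passed by limma, 3 by edgeR and 5 by DESeq2, and 0 to 1 with 1 library left out (CD68 without bloom 1, limma adjusted p = 0.0478). The spread test passed 0 genes, and 0 to 1 with 1 library left out. Of 28 pairs, 28 passed by Pearson's r over 17 libraries, 8 without non-bloom 3, 7 and 8 and 8 within bloom. By Spearman's rho 20, 1 and 0 passed. The counts over 17 libraries pool the separate clusters of non-bloom libraries.

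Directions turned as follows, with log2 changes of count tools on their own scale. Without non-bloom 3, 7 and 8: CSF1R 0.26, C1QB 0.25, ICAM1 0.21, CD74 0.21, C3 0.38 and LY9 0.32, and differences in spread of 0.037 for SPI1, 0.40 for CSF1R, 0.29 for ITGAM, 0.17 for TYROBP and 0.51 for C1QB. With the covariate: TYROBP -0.30, CX3CL1 0.015, LYN -0.19, LGALS3 -0.051, CD40 -0.071, NFKBIA -0.14, NCF1 -0.29 and CYBA -0.19. Without bloom 5, 6 and 9: TYROBP -0.21, NCF1 -0.093 and CYBA -0.17. TYROBP was -0.097 by edgeR, -0.097 by DESeq2 and -0.073 by limma-voom, F13A1 was -0.11 by limma-voom, and CYBA was -0.0031 under TMM without mitochondrial transcripts. With 1 library left out TYROBP ran from -0.062 to 0.15 and CYBA from -0.078 to 0.089. The cause was not tested. TREM2 and CX3CR1 had too few reads for the test, and 3 reads were worth up to 1.71 in bloom 9, so low members were not measured precisely there.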
